A study of Mus musculus with 12 samples.

Results

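The complement genes described here are the 8 genes C2, C3, C4b, Cfb, Cfp, C3ar1, C5ar1 and Serping1, taken by name from the 37750 rows of an expression table. They occupy 7 rows, because C2 and Cfb share 1 row with the predicted gene Gm20547, and all 7 rows passed the filter on low values. The other 6 genes have a row each. Levels are FPKM, in which a gene's fragments are divided by its length and by the size of its library, so levels of different genes can be set side by side.

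The 12 libraries come from Ad/NICD mice on a 129 x C57BL/6 background, which express the active Notch1 intracellular domain in fat cells. WAT is white adipose tissue from animals 3 weeks old (4 libraries) and LPS is liposarcoma from animals 9 to 12 months old (8 libraries). Both groups carry the transgene, no transgene-free tissue is part of the comparison, and the labels do not name the promoter that drives it. Tissue and age change together, so their parts in any difference cannot be told apart. The labels call the libraries biological replicates without saying how animals, litters or tumours relate.

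Complement is a cascade of plasma proteins that tags and lyses targets and calls in leukocytes. The classical and lectin routes cleave C4 and C2, the alternative route uses factor B, factor D and properdin, and all of them meet at C3. The small fragments C3a and C5a act through the G protein-coupled receptors C3AR1 and C5AR1 on myeloid cells, and the C1 inhibitor, encoded by Serping1, blocks the first proteases of the classical and lectin routes. The liver makes most plasma complement, while adipocytes and macrophages are known local sources.

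Sequence is shown for the promoters of C3, which had the largest difference among the members, and of Cfp, which did not pass the test. RefSeq (GRCm38.p6) promoters of 250 bases before to 50 bases after the annotated start were at hand for 4 of the 8 genes, C3, C3ar1, C5ar1 and Cfp. C3 lies at chr17:57228087-57228386 and Cfp at chrX:20931506-20931805, both on the minus strand. Both are written 5′ to 3′ along the gene, with capitals at every match to a searched motif.
C3: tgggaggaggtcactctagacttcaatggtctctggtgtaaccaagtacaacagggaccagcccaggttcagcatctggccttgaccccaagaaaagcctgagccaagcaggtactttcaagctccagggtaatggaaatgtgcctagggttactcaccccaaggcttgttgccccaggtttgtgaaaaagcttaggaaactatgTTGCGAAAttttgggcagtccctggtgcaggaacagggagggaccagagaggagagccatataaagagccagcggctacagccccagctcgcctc
Cfp: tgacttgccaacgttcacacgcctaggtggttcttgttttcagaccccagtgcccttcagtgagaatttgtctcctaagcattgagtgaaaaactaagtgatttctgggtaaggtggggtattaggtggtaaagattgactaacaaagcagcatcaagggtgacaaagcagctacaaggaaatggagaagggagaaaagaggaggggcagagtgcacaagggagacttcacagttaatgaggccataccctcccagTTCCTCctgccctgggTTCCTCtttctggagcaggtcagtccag
Motifs were searched on both strands. The C/EBP letters TTGCGNAA matched once in C3, as TTGCGAAA from position -45 relative to the start, and in 0.798% of 32851 promoters of this length. The PU.1 core GAGGAA matched 2 times in Cfp, on the opposite strand from positions 7 and 23, and in 28.3% of promoters. The STAT site TTCNNNGAA (8.30% of promoters) and the RBPJ core TGGGAA (25.6%), which serves the DNA-binding partner of Notch, were not found in the 4 windows. The C3ar1 and C5ar1 windows held none of the 4 motifs. No matches overlapped.

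Fragment totals are not in the table. FPKM sums ran from 771665 to 996090, and by the low values of 919 genes with a single transcript the deepest library (WAT 1) had 2.73 times the depth of the shallowest (LPS 1). A single fragment of a 2000-base transcript was worth 0.0164 to 0.0448 FPKM, well under the lowest member value, 1.04 FPKM. LPS 5 stood apart, with a median ratio of 0.805 to the geometric mean over libraries against 0.984 to 1.05 in the others. No 2 libraries held identical values.

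The comparison of LPS with WAT asks which transcripts part the tumours from the young fat of the same transgenic line. C3 and C4b were lower in the tumours, C3ar1 was higher, and the rows of C2 and Cfb, Cfp, C5ar1 and Serping1 did not pass the test. Thus 2 of the 7 rows were called lower, where 27.0% of the 14821 rows tested were, and 1 was called higher, where 18.9% were (limma, adjusted p below 0.05). In C3 and C4b every tumour lay below every WAT library, which held for 20.9% of all rows, and in C3ar1 every tumour lay above, which held for 11.8%. In either direction 3 of the 7 rows were called, against 46.0% of all rows, and 3 had groups that did not overlap, against 32.6%. The median log2 difference of the 7 rows was -0.43, against -0.05 over all rows tested.

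**Figure D1:**
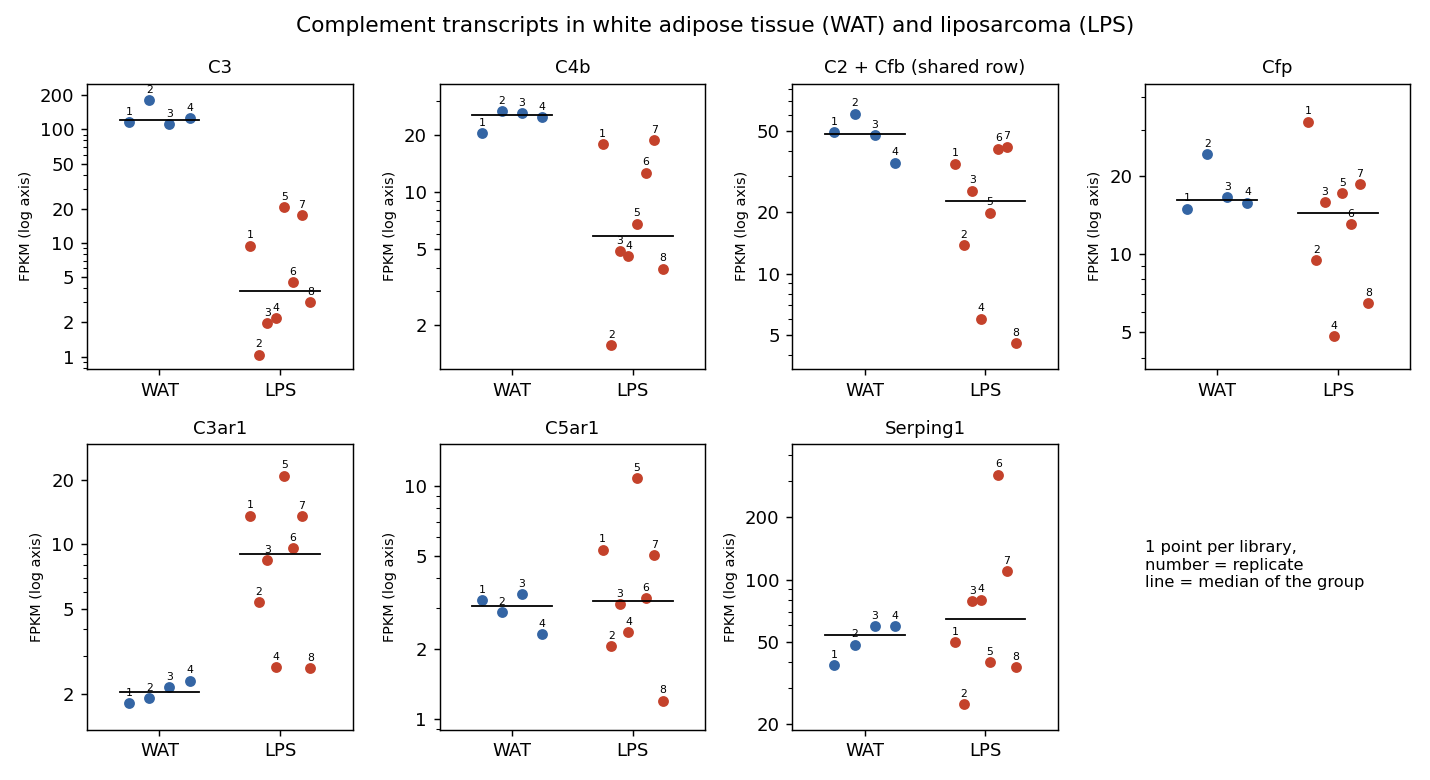
FPKM of each member row in every library (log axis); points are libraries, marked by replicate number, and lines are group medians. All 8 tumours lie below the 4 WAT libraries for C3 and C4b and above them for C3ar1, while the groups overlap in the other 4 rows.

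C3, the central component (ENSMUSG00000024164, chromosome 17, 57203970 to 57228136), stood at 117, 180, 112 and 126 FPKM in WAT 1 to WAT 4. Across the tumours it ranged from 1.04 FPKM (LPS 2) to 20.8 FPKM (LPS 5), with a median of 3.77 FPKM. The highest tumours, LPS 5 at 20.8 and LPS 7 at 17.7 FPKM, were still far below the lowest WAT library. Mean C3 was 134 ± 31.8 FPKM in WAT (SD, n = 4). It was 7.59 ± 7.69 FPKM in LPS (SD, n = 8), which is 17.6-fold lower. On the log2(FPKM + 1) scale the difference was -4.45 ± 0.59 (SE; limma adjusted p = 4.3e-05), rank 106 of the 4007 rows called lower. It stayed called under every alternative tried, with log2 differences from -5.13 to -4.16. In every WAT library C3 was the highest of the 7 rows.

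All 8 adipocyte markers tested were lower as well. Their summed level lay between 3356 and 4437 FPKM in WAT and between 7.15 and 42.1 FPKM in the tumours. Some of these markers passed the filter only through WAT, where no call but lower was open. With any one WAT library left out 5 were tested and 5 were lower, and with no filter all 8 were lower. All 7 fibroblast markers tested were lower too. Their sums lay between 985 and 1709 FPKM in WAT and between 19.0 and 361 FPKM in the tumours. The part of either cell type in the C3 result was not tested. In bulk tissue, fewer cells of a type and less RNA per cell cannot be told apart.

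C4b (ENSMUSG00000073418, chromosome 17, 34728380 to 34743882) encodes C4, which the classical and lectin routes cleave. WAT 1 to WAT 4 held 20.3, 26.5, 25.9 and 24.7 FPKM. The tumours spanned 1.56 FPKM (LPS 2) to 18.7 FPKM (LPS 7), with a median of 5.85 FPKM. LPS 1 and LPS 7, at 17.9 and 18.7 FPKM, came close to the WAT range without entering it. Mean C4b was 24.4 ± 2.80 FPKM in the 4 WAT libraries and 8.88 ± 6.64 FPKM in the 8 tumours (SD). The log2 difference was -1.66 ± 0.48 (SE; limma adjusted p = 0.0124). Without WAT 1 and WAT 4 together the adjusted p was 0.0769. C4a, the neighbouring near-identical copy that can share reads with it, was listed at 0.267 to 1.22 FPKM and not tested, so the C4b values are uncertain to the extent that reads were split. The ratio of C4b to C4a was 33.9 to 65.4 in WAT and 4.14 to 27.2 in LPS.

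C2 and Cfb encode the homologous proteases of the classical and alternative C3 convertases and lie side by side on chromosome 17 (C2 at 34862604 to 34898265, Cfb at 34856374 to 34862518, GENCODE M21 on GRCm38). Their shared row, which cannot be divided between them, held 49.1, 60.7, 47.7 and 34.9 FPKM across the WAT libraries in order. The tumours ran from 4.57 FPKM (LPS 8) to 41.8 FPKM (LPS 7), with a median of 22.7 FPKM. LPS 6 and LPS 7 lay inside the WAT range and the other 6 tumours below it. The log2 difference of -1.31 ± 0.53 missed the threshold (limma adjusted p = 0.0594). It was called lower without LPS 1, LPS 6 or LPS 7 (adjusted p = 0.0469, 0.0380 and 0.0357), and the exact permutation test over all 495 assignments gave p = 0.0444, unadjusted and two-sided.

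Cfp encodes properdin, which stabilises the alternative convertase and comes mainly from myeloid cells (chromosome X, 20925454 to 20931555). Its level was 14.9, 24.2, 16.6 and 15.8 FPKM across WAT 1 to WAT 4. Tumour values ran from 4.82 FPKM (LPS 4) up to 32.3 FPKM (LPS 1), with a median of 14.4 FPKM. The tumours lay on both sides of the WAT range, 4 below it and 1 above. The log2 difference was -0.43 ± 0.38 (limma adjusted p = 0.381), and it ran from -0.62 without LPS 1 to -0.26 without LPS 4, not called in either case.

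C3ar1, the receptor gene for C3a (ENSMUSG00000040552, chromosome 6, 122847138 to 122856161), measured 1.81, 1.91, 2.15 and 2.30 FPKM in WAT 1 to WAT 4. The tumours ranged from 2.63 FPKM (LPS 8) to 21.0 FPKM (LPS 5), with a median of 9.02 FPKM. LPS 4 and LPS 8, at 2.67 and 2.63 FPKM, were only just above the highest WAT library. Mean C3ar1 was 2.04 ± 0.224 FPKM over the 4 WAT libraries and 9.61 ± 6.30 FPKM over the 8 tumours (SD), 4.70-fold higher. On the log2 scale it was higher by 1.55 ± 0.44 (SE; limma adjusted p = 0.0117). Without WAT 1 and WAT 4 together the adjusted p was 0.0914.

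C5ar1, the receptor gene for C5a (chromosome 7, 16246743 to 16259540), did not pass the test. WAT 1 to WAT 4 gave 3.23, 2.87, 3.43 and 2.32 FPKM. The tumours gave 1.20 FPKM (LPS 8) to 10.7 FPKM (LPS 5), with a median of 3.20 FPKM. The groups overlapped, with 3 tumours above all WAT libraries and 2 below. The log2 difference was 0.20 ± 0.36 (limma adjusted p = 0.675), and it ran from 0.01 without LPS 5 to 0.35 without LPS 8, not called in either case. Within a library the order of both receptors differed by group: C3ar1 lay below C5ar1 in 4 of 4 WAT libraries, at 0.559 to 0.994 times its level, and above it in 8 of 8 tumours, at 1.13 to 2.90 times. This ratio, picked after its values were seen, is given without a test.

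**Figure D2:**
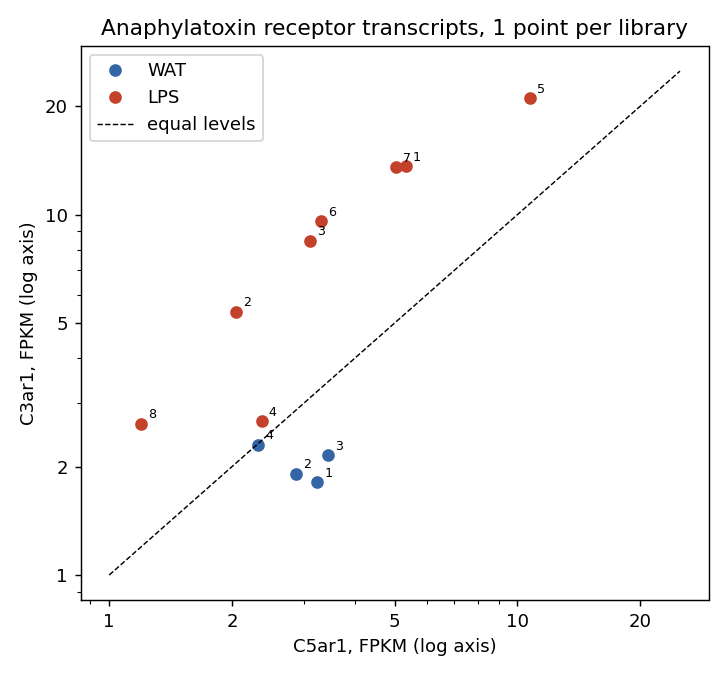
C3ar1 against C5ar1, both in FPKM on log axes, with 1 point per library marked by replicate number and a dashed line at equal levels. The 4 WAT libraries lie under the line, WAT 4 nearly on it, and the 8 tumours above it.

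Myeloid markers moved with the receptor only in part. Of 12 macrophage markers tested, 5 were higher and 2 lower, with a median log2 difference of 0.71. Those counts were 3 and 1 without WAT 1, WAT 3 or WAT 4, 4 and 1 without WAT 2, and 2 and 1 without WAT 1 and WAT 4 together. In each of these settings 11 markers were tested, as 1 marker passed the filter only through WAT, where no call but lower was open. The counts were 7 and 2 without LPS 8, and 6 and 2 without LPS 2 or after quantile normalization. They were 4 and 2 without LPS 6, and 3 and 2 with the replicate block. Macrophage markers summed to 143 to 236 FPKM among WAT libraries and 134 to 464 FPKM among tumours, and no defining marker was at 0. Adgre1, which encodes F4/80 and is listed as Emr1, rose from 7.84 to 22.5 FPKM (limma adjusted p = 0.0146). Its adjusted p was 0.1002 with WAT 1 and WAT 4 left out and 0.0683 with the replicate block. Csf1r, the macrophage growth factor receptor, had means of 21.4 and 26.1 FPKM (adjusted p = 0.725). Among 6 general leukocyte markers, 1 was higher and 3 lower (2 and 2 without LPS 8). These counts were 1 and 2 without any one of the WAT libraries, without LPS 2 or without LPS 4. They were also 1 and 2 with no filter, after quantile normalization, after median-ratio scaling and with the Xist covariate. With the replicate block, and without WAT 1 and WAT 4 together, they were 0 and 2. Neutrophil markers reached 193 FPKM in LPS 5 when summed. The other tumours held 7.59 to 34.4 FPKM and the WAT libraries 3.23 to 47.5 FPKM. C5ar1, C3ar1 and C3 were all highest among tumours in LPS 5. Without LPS 5, C3ar1 had a log2 difference of 1.37 (limma adjusted p = 0.0142) and C5ar1 one of 0.01 (adjusted p = 0.988). The part of these cells in the receptor results was not tested.

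Serping1 (chromosome 2, 84765387 to 84775444) measured 38.6, 48.4, 59.3 and 59.6 FPKM in WAT 1 to WAT 4. The tumours ranged from 25.03 FPKM (LPS 2) to 322 FPKM (LPS 6), with a median of 64.1 FPKM. LPS 6 stood far above the next tumour, LPS 7 at 109.9 FPKM. The log2 difference was 0.40 ± 0.53 (limma adjusted p = 0.561). It was 0.08 without LPS 6 and 0.60 without LPS 2, and not called in either case (adjusted p = 0.866 and 0.343). Serping1 was the highest of the 7 rows in all 8 tumours, the place that C3 held in all 4 WAT libraries. Its ratio to C3 was 0.269 to 0.531 in WAT and 1.91 to 71.0 in LPS.

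By mean level the order in WAT was C3, Serping1, the C2 and Cfb row, C4b, Cfp, C5ar1 and C3ar1. The ranges of Serping1 and the C2 and Cfb row overlapped there, as did those of C4b and Cfp. In LPS the order was Serping1, the C2 and Cfb row, Cfp, C3ar1, C4b, C3 and C5ar1, and each neighbouring pair overlapped in range. C3 thus went from the first place to the sixth, and C3ar1 from the last to the fourth.

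The tumours differed among themselves more than the WAT libraries did. From the lowest to the highest library, levels spread 6.69-fold (Cfp) to 20.0-fold (C3) in LPS and 1.27-fold (C3ar1) to 1.74-fold (the C2 and Cfb row) in WAT. Such a range widens with the number of libraries, 8 in LPS and 4 in WAT. The spread of rows outside the members was not measured. Coefficients of variation were 59.0% to 104% in LPS and 11.0% to 23.9% in WAT. LPS 7 was among the top 3 tumours in all 7 rows and LPS 1 in 6 of them. LPS 2 was among the bottom 3 in all 7 rows, and LPS 4 and LPS 8 in 6 each. The macrophage marker sum was lowest in those 3 tumours, with 134 FPKM in LPS 2, 141 in LPS 4 and 138 in LPS 8. The other 5 tumours held 202 to 464 FPKM. LPS 1 held the highest sum and LPS 7 220 FPKM. The part of macrophage content in these levels was not tested.

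**Figure D3:**
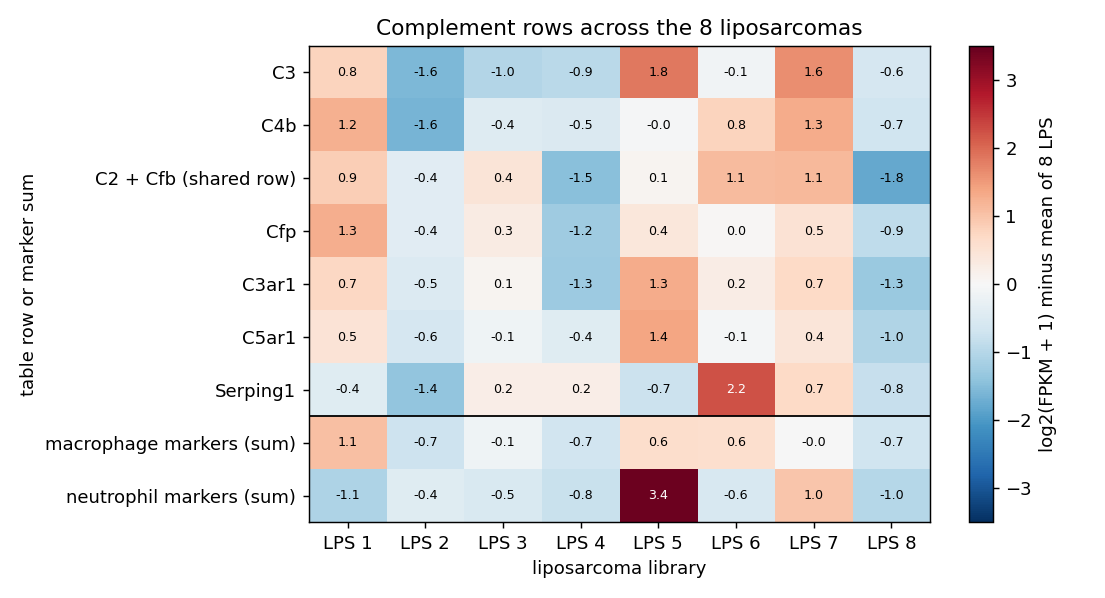
Each cell is log2(FPKM + 1) in a tumour minus the mean of the 8 tumours, for the 7 member rows and, under the line, the summed macrophage and neutrophil markers. LPS 2, LPS 4 and LPS 8 are mostly blue (low), LPS 1 and LPS 7 mostly red (high), and Serping1 is highest in LPS 6.

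Likeness between profiles was measured as the root mean square difference of mean-centred log2(FPKM + 1) over the 8 tumours, where 0 means the same pattern. Libraries and their scaling are shared by all rows, so the values are a description. They also depend on how far each row varies, so rows that vary little can lie close without a shared pattern. The root mean square of a row around its own mean was 0.700 for C5ar1, 0.757 for Cfp and 0.890 for C3ar1. It was 0.965 for C4b, 1.06 for Serping1 and for the C2 and Cfb row, and 1.20 for C3. Among the members, C3ar1 and C5ar1 were the most alike (0.370), then Cfp and C3ar1 (0.425), and C3 and Serping1 the least (1.49). Outside the members, the nearest rows to C3ar1 were Msr1 (0.213) and Tlr13 (0.229), and Cd68 (0.255) was among the 2 rows nearest to C5ar1. Cfp lay nearest to Smpdl3a (0.156) and Coro1a (0.191), C4b to Mrc1 (0.325) and Aoah (0.350), and the C2 and Cfb row to Pik3ap1 (0.374). C3 was nearest to Ccl6 (0.465) and Csf3r (0.499). Serping1 had no row closer than Adamtsl2 (0.533) and Gm15736 (0.538).

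Age at collection, 9 to 12 months, showed no called slope in the tumours. None of the 7 rows was called by limma, and neither was any of the 13280 rows tested (0%), where 228 rows (1.72%) and no member had an unadjusted p below 0.05. The steepest member slope was that of C3, 0.52 ± 0.37 log2 units per month (SE; limma adjusted p = 1.00, unadjusted 0.195). LPS 4 was the only tumour 12 months old, and the C3 slope was smaller with it than without it. With LPS 4 left out the C3 slope was 1.20 log2 units per month (unadjusted p = 0.00491) and the C5ar1 slope 0.59 against 0.26 (unadjusted p = 0.0469), both with a limma adjusted p of 0.999. The other 5 member rows stayed above an unadjusted p of 0.05 with any single tumour left out.

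Other complement genes moved in both directions, as did rows over the whole table. Of 49 listed complement genes outside the members, 25 were tested in rows of their own, and 5 were higher and 9 lower in LPS, with a median log2 difference of -0.19. In the main test 18.9% of all rows were higher and 27.0% lower. These are the shares to set beside the counts above and every other main count from a list. They do not hold for the alternatives. Higher rows were 4182 of 14821 after quantile normalization, 2646 of 27793 with no filter and 1402 of 13890 without WAT 1 and WAT 4. Without single WAT libraries 2156 to 2321 rows were higher and 2902 to 3028 lower, of 14197 to 14210. Lower rows were 2114 without WAT 1 and WAT 4, and 2818 of 10396 with the filter at 5 FPKM. The higher count was 3 without WAT 1, WAT 2, WAT 3, WAT 4 or LPS 6, 3 with no filter, 9 after quantile normalization, and 0 without WAT 1 and WAT 4 together. The lower count was 6 when any one of the WAT libraries was left out, with 22 genes tested, 5 without WAT 1 and WAT 4, and 5 with the filter at 5 FPKM, with 17 tested. Cpn2, Csmd1 and Cr2 left the test without any one WAT library, as they passed the filter only through WAT. No call but lower was open to these genes in the main test.

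**Figure D4:**
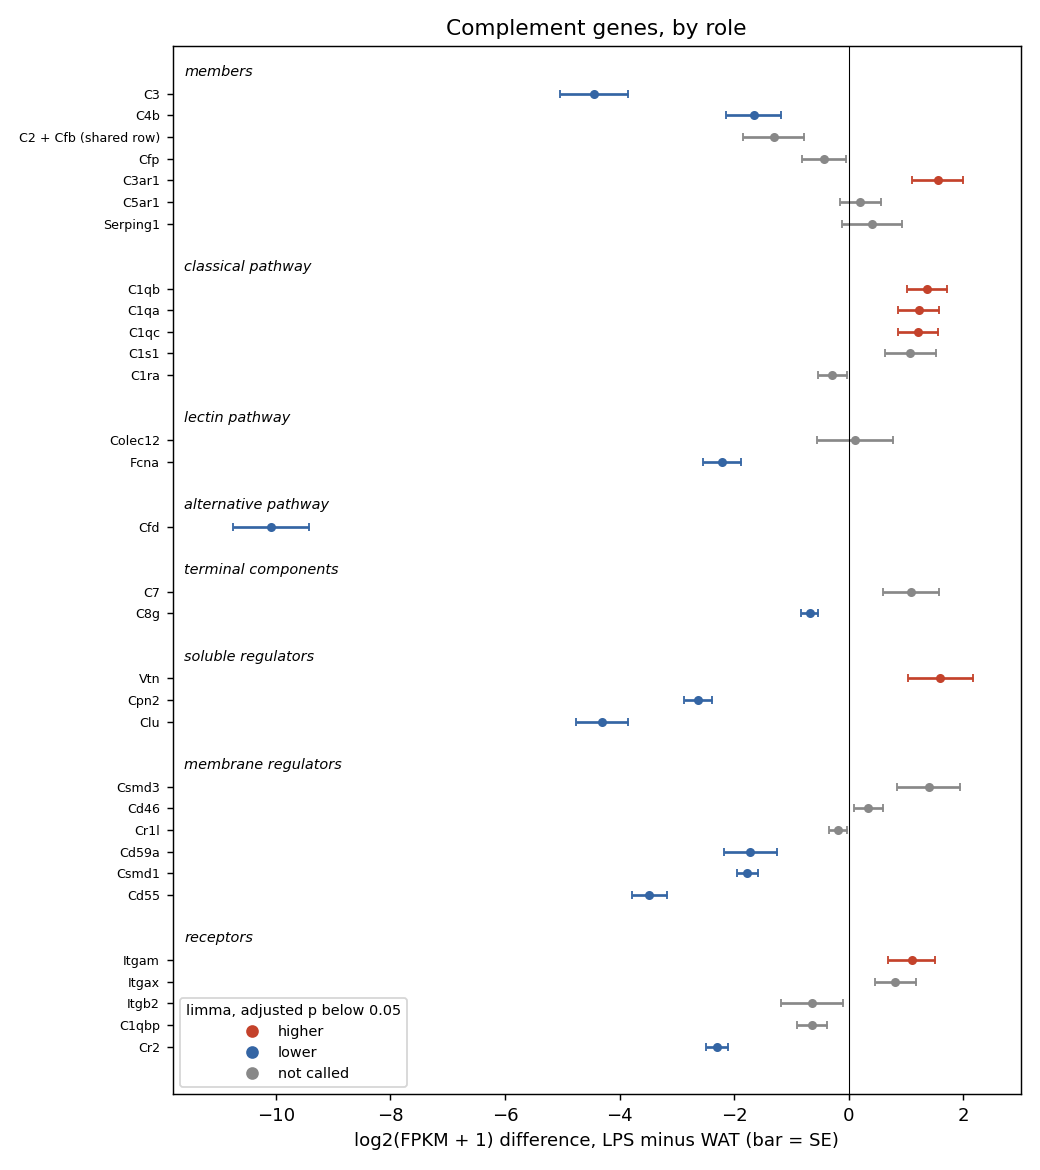
Difference of log2(FPKM + 1), LPS minus WAT, with its SE as the bar, for the 7 member rows and 24 other complement genes grouped by role. Cfd lies farthest to the left, at -10.08, and C3 and Clu follow at -4.45 and -4.31.

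In the classical route, beside the members C4b (lower) and C2 (in the shared row, not called), 3 of 5 other genes tested rose and 0 fell, and the 3 were the chains of C1q, the sensor that binds antibody. C1qb went from 34.3 ± 2.91 to 102 ± 54.4 FPKM (SD, n = 4 and n = 8; limma adjusted p = 0.00579), C1qa from 60.2 to 161 FPKM and C1qc from 38.6 to 102 FPKM (adjusted p = 0.0139 and 0.0117). None of the 3 was called once WAT 1 and WAT 4 were left out (adjusted p = 0.127, 0.0649 and 0.119 for C1qa, C1qb and C1qc). C1s1, the gene of the protease that cleaves C4 and C2, listed as C1s, measured 31.7 ± 4.11 and 80.9 ± 53.3 FPKM and missed the threshold (adjusted p = 0.0602, and 0.00323 without LPS 5). C1s1 was also called higher after quantile normalization, after median-ratio scaling and with the replicate block (adjusted p = 0.0258, 0.0337 and 0.0167). In the alternative route Cfd, factor D or adipsin, fell from 2667 ± 417 to 4.06 ± 9.37 FPKM (adjusted p = 7.12e-08). In the lectin route Fcna, ficolin A, fell from 13.1 to 2.21 FPKM (adjusted p = 1.12e-04), and Colec12 had 10.4 and 15.9 FPKM without a call.

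Of 4 soluble regulators tested 1 was higher and 2 lower, and of 6 membrane regulators 3 were lower. Without any one of the WAT libraries the soluble counts were 0 and 1, with 3 genes tested. Clu, clusterin, an inhibitor of the membrane attack complex, fell from 66.4 ± 30.3 to 2.82 ± 2.82 FPKM (limma adjusted p = 5.23e-06), and Cpn2, a subunit of the carboxypeptidase that trims C3a and C5a, from 6.03 to 0.0238 FPKM. Cd55, which speeds the decay of C3 convertases, fell from 23.3 ± 7.51 to 1.26 ± 0.909 FPKM (adjusted p = 1.02e-06), Csmd1 from 3.20 to 0.245 FPKM, and Cd59a, a block on the terminal complex, from 12.0 to 3.92 FPKM (adjusted p = 0.00871). With WAT 1 and WAT 4 left out Cd59a had an adjusted p of 0.0586, and with the replicate block 0.0777. Cr1l, the rodent membrane regulator Crry, had 32.0 ± 3.33 and 28.3 ± 5.46 FPKM (adjusted p = 0.333). Vtn, vitronectin, rose from 10.2 to 44.0 FPKM (adjusted p = 0.0325). That call was lost without any of the WAT libraries (adjusted p = 0.0624 to 0.0853), without LPS 2 (0.0532) or without LPS 6 (0.0535). With no filter it was lost too (0.0522).

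Among receptors Cr2, complement receptor 2 of B cells, fell from 5.58 to 0.307 FPKM (limma adjusted p = 6.51e-07). Cr2 passed the filter only through the WAT libraries, its highest tumour value being 0.846 FPKM, so no call but lower was open to it. With no filter its limma adjusted p was 1.49e-06. All 8 lymphocyte markers fell as well, their sums spanning 102.5 to 214 FPKM among WAT libraries and 0.988 to 19.8 FPKM among tumours. Some of them passed the filter only through WAT, where no call but lower was open. With any one WAT library left out 5 were tested and 5 were lower, and with no filter all 8 were lower. The part of lymphocytes in the Cr2 result was not tested. Itgam, a chain of complement receptor 3, rose from 4.12 to 11.8 FPKM (adjusted p = 0.0449). The call of Itgam was lost without any of the WAT libraries (adjusted p = 0.0712 to 0.105) and without LPS 1, LPS 3, LPS 5, LPS 6 or LPS 7 (0.0558 to 0.0695). It was also lost with no filter, after median-ratio scaling, with the Xist covariate and with the replicate block (0.0699, 0.05004, 0.0524 and 0.0656). C1qbp was the most abundant receptor gene not called, with 43.7 and 28.8 FPKM (adjusted p = 0.0643, and 0.0158 and 0.0309 without LPS 2 and LPS 5). In the terminal pathway C8g fell from 1.79 to 0.764 FPKM (adjusted p = 0.00259) and C7 had 0.307 and 2.49 FPKM (adjusted p = 0.0856, and 0.0442 and 0.0469 without LPS 2 and LPS 3). C7 was also called higher after quantile normalization and with the Xist covariate (adjusted p = 0.0189 and 0.0323).

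C4b, C2 and Cfb lie in the class III region of the major histocompatibility complex, among genes of other functions. Of 6 neighbours tested in rows of their own, 1 was higher and 1 lower. Nelfe, a subunit of the negative elongation factor next to Cfb, rose from 11.5 to 14.7 FPKM (limma adjusted p = 0.0358). That call was lost without any of the WAT libraries (0.0594 to 0.125) or without LPS 2 (0.0541). It was also lost with no filter (0.0530) and with the replicate block (0.0929). Dxo, a decapping exonuclease, fell from 16.6 to 12.3 FPKM (adjusted p = 0.0136). Its adjusted p was 0.103 with WAT 1 and WAT 4 left out and 0.0603 with the replicate block. Ehmt2 (38.1 and 50.8 FPKM), Zbtb12 (2.71 and 2.60 FPKM), Stk19 (11.8 and 10.6 FPKM) and Tnxb (41.7 and 22.1 FPKM) were not called. Ehmt2 was called higher without LPS 5 (adjusted p = 7.34e-04). It was also called higher after quantile normalization, after median-ratio scaling and with the replicate block (0.0260, 0.0415 and 0.0268). Tnxb was called lower without LPS 1 or LPS 3 (0.0241 and 0.0109), the tumours with 58.6 and 96.1 FPKM. The joined row of Skiv2l had 24.0 and 20.9 FPKM, and Cyp21a1 at most 0.0320 FPKM.

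Set against the labels, WAT held high adipocyte markers and LPS hardly any: Adipoq averaged 586.5 FPKM in WAT and 0.936 FPKM in LPS. All 7 pericyte markers were higher in LPS, where they summed to 3496 to 7675 FPKM, against 191 to 215 FPKM in WAT. Of 8 endothelial markers 5 were lower and 1 higher, and of 5 mast cell markers 2 were lower. The mast cell count was 0 without any one of the WAT libraries and 4 without LPS 8, which held the highest mast cell sum at 145 FPKM. It was 1 without LPS 1, LPS 2, LPS 3, LPS 4 or LPS 5, with no filter, and after quantile normalization or median-ratio scaling. With the replicate block it was 5. Of 4 neutrophil markers 1 was higher, and 0 were without any one of the WAT libraries or without LPS 1, LPS 6 or LPS 7. That count was also 0 with no filter, after median-ratio scaling, with the Xist covariate and with the replicate block. Hepatocyte markers summed to at most 8.77 FPKM in any library, and of 6 only Alb was tested, at 5.12 and 0.688 FPKM (limma adjusted p = 0.0120). Alb left the test without WAT 1, WAT 2, WAT 3 or LPS 3, through which it had passed the filter. The hepatocyte sum was 8.04 FPKM in LPS 3 and at most 0.447 FPKM in the other tumours, and 0.583 FPKM in WAT 4.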

How the data were processed

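Per the labels' protocols, total RNA of frozen samples went into strand-marking libraries after removal of rRNA. The authors deposited FPKM values for 12 libraries. Cuffdiff 2.2.1, Cufflinks 2.2.1, TopHat2 2.1.0, Trimmomatic and Bowtie2, with the build GRCm38, are named in the submitters' processing notes, with roles and any further scaling between libraries not given in the sources used here. Of 37750 rows, 828 join several names. Only the C2 and Cfb row was used for members among these, and joined rows stayed out of the other lists. Starts are counted from 1.

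The 2 groups were compared on log2(FPKM + 1) by limma 3.58.1 (R 4.3.3), using trended, robust empirical Bayes variances and two-sided p-values. These were adjusted by Benjamini-Hochberg (threshold 0.05) across every row reaching 1 FPKM in 4 or more libraries. Such differences understate changes near or below 1 FPKM. Age was fitted as a slope within LPS in the same way. The p-values set each difference against the spread between libraries, and whether all libraries come from independent animals is not stated. The fit was tested on simulated data. Alternatives were other pseudocounts, filters and scalings, plain empirical Bayes, an Xist covariate, a replicate block, libraries left out, and an exact permutation test per row. Depth was read from the 5th percentile of non-zero FPKM times length over genes longer than 2000 bases.

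The members and lists were chosen with earlier results of these data known. Named genes are the members, the 2 largest called differences each way and the most abundant uncalled gene of each complement list, the class III neighbours, the 2 rows nearest each member and the first 2 genes of each marker list, printed here only where a result turns on them. C1qc, Cd59a and the genes of the closing section outside this rule were added after their values were seen. Some genes that this rule names are not reported here. Retired symbols were matched through RefSeq synonyms.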

Additional observations from a re-analysis of the deposited data

Results flagged for a closer look

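For each of the 7 member rows and 24 other tested complement genes, the highest and lowest library of each group was set against the rest of its group, 62 groups in all. The cut-offs would single out about 1 group in 20 by chance if levels were normally distributed and groups independent. Some tumour levels were skewed and the groups share libraries, so the chance rate here is not known. Among the members, LPS 5 stood apart for C5ar1, at 10.7 FPKM against 5.32 FPKM in the next tumour, and LPS 6 for Serping1, at 322 FPKM against 109.9 FPKM.

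Among the other complement genes, LPS 5 was apart from the other tumours for Cfd at 27.2 FPKM (next 1.29) and for Cpn2 at 0.148 FPKM (next 0.0229). LPS 1 was apart for C1s1 at 200.2 FPKM and Cr2 at 0.846 FPKM, and LPS 2 for Csmd3 at 11.4 FPKM. Within WAT, WAT 1 was low for Cfd at 2047 FPKM, WAT 2 high for Cd55 at 34.4 FPKM and Itgb2 at 23.5 FPKM, and WAT 4 high for Cd46 at 3.29 FPKM and C1qbp at 60.2 FPKM.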

How the results depend on the processing

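The counts of member rows, 1 higher and 2 lower, were within 1.5 times under all alternatives but that without WAT 1 and WAT 4, which left 2 WAT libraries and gave 0 higher, 1 lower and 3516 called rows in all. Lower calls made up 58.8% of the 6813 called rows, but 45.2% under quantile normalization, where the median log2 difference over all rows was 0.10 instead of -0.05. Without the filter 2646 rows were higher and 5387 lower. The 5 FPKM filter removed C5ar1 from the test. No same-numbered pair of libraries deviated together beyond r = 0.0921, and only WAT 3 of the WAT libraries correlated best with its own number. The labels do not say whether the numbers pair samples, and such correlations between unlike tissues cannot settle it. With the replicate block, in which only LPS 1 to LPS 4 have a partner, 6039 rows were called and 3 member rows were lower, the C2 and Cfb row among them (log2 -1.45).

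Uncalled directions turned in places, and the causes were not tested. The age slope of Cfp was -0.00552 with a pseudocount of 0.1, and that of Serping1 0.00364 with the Xist covariate. With single tumours left out, age slopes ran from -0.12 to 0.49 for Cfp, -0.0717 to 0.57 for C3ar1, -0.0372 to 0.68 for C4b, -0.38 to 0.24 for the C2 and Cfb row and -0.53 to 0.47 for Serping1. Those of C3 (0.29 to 1.20) and C5ar1 (0.14 to 0.59) kept their sign, with the highest value of each without LPS 4. Colec12 was -0.0123 with a pseudocount of 0.1 and -0.27 with the replicate block, and Zbtb12 0.17 after quantile normalization and 0.0135 without WAT 1 and WAT 4. With single libraries left out, Colec12 ran from -0.15 to 0.52 and Csf1r from -0.00877 to 0.25.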

Other observations

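Components of the terminal pathway, which builds the lytic pore, differed in level. C8b was listed at 0 in all libraries and C9 at 0 in all but LPS 3 and LPS 5, at 0.137 and 0.318 FPKM. Hc, the gene of C5, reached at most 0.588 FPKM (LPS 5). C6 was highest in LPS 1 at 3.77 FPKM, with 0.129 FPKM in the lowest tumour and no more than 0.255 FPKM in any WAT library, and C7 was highest in LPS 1 and LPS 6, at 6.65 and 6.53 FPKM. Among the starters of the lectin route, Mbl1 was listed at 0 throughout and Mbl2 reached at most 0.0877 FPKM.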
